A study of Mus musculus with 3 samples.

Results

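The 100 long noncoding RNAs (lncRNAs) with the highest levels in ALSCs were examined. They were taken from the 9167 rows of the authors' gene table that carried the biotype lncRNA, a gene name, a length of at least 200 bases and a position outside chromosomes X and Y, after *H19*, *Airn*, *Meg3*, *Rian*, *Mirg* and *Kcnq1ot1* had been left out. The whole table held 55421 named genes. They were chosen by their measured FPKM (counts scaled by gene length and by the library's total on named genes), averaged over 3 libraries. Their levels are therefore a description and were not tested.

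ALSCs are primed pluripotent cells derived from the epiblast of mouse embryos at embryonic day 6.5, from ICR females mated with males carrying the GOF/GFP transgene, and grown with Activin A and LIF in a serum-free medium. All 3 libraries (replicates 1, 2 and 3) belonged to this condition, so no second genotype, treatment or time was compared. The study describes its RNA-seq replicates as biological, but the labels do not say whether they were separate derivations or separate cultures. The p-values below set the differences between these libraries against counting error only, and they depend on depth. Poly(A) RNA was sequenced with a kit that does not mark strand, so reads from overlapping genes on opposite strands cannot be told apart, and RNAs without a poly(A) tail were not selected.

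The label was checked against marker genes. Only a part of each marker list is given here. The naive genes *Esrrb*, *Klf4*, *Tfcp2l1* and *Nr0b1* and most of the extraembryonic list are left out, so the check is partial. Also left out are *Dnmt3b* and *Pou3f1* of the epiblast list and *Col1a2*, *Col3a1* and *Postn* of the fibroblast list. The genes shown do not stand for their whole lists. The epiblast markers *Pou5f1* (*Oct4*), *Nanog* and *Sox2* were at 648 ± 25.3, 171 ± 17.96 and 119 ± 5.21 FPKM (mean ± SD, n = 3), and *Otx2* and *Fgf5*, markers of the post-implantation epiblast, were at 5.08 ± 0.472 and 3.89 ± 0.0503 FPKM. The naive marker *Zfp42* had 3, 3 and 2 counts in replicates 1, 2 and 3, and *Tbx3* had 0, 1 and 0. The fibroblast genes *Dcn* and *Lum* and the extraembryonic gene *Ttr* had 0 counts in every library, read here as a mean of at most 3 counts per library. In contrast, the fibroblast-list gene *Col1a1* was at 5.04 ± 1.11 FPKM. In RNA from whole cultures, fewer cells of a type and less RNA per cell cannot be told apart.

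Replicates 1, 2 and 3 held 18088505, 18724038 and 18037342 counts on named genes, and 1 count on a gene of 1 kb was worth 0.0553, 0.0534 and 0.0554 FPKM. Replicate 1 stood apart from the other libraries. A chi-square test of each gene's counts against the library sizes called 47.2% of the 16944 genes with at least 10 counts in total as unequal between the 3 libraries, and 8.11% when replicate 1 was left out. Every call of a member given below was lost without replicate 1, except those of 6 members that are named with the counts of calls.

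LncRNAs are transcripts without a long open reading frame, and most are present at lower levels than messenger RNAs. Some act as RNA, as *Malat1* does in nuclear speckles. Others matter mainly for what their introns or exons hold. Genes of the snoRNA host class are spliced, and small nucleolar RNAs (snoRNAs), which guide chemical modification of ribosomal RNA, or small Cajal body RNAs (scaRNAs), which guide that of spliceosomal RNA, are trimmed from their introns. Many host transcripts begin, like the mRNAs of ribosomal proteins, with a run of pyrimidines, and their spliced RNA is held low by decay coupled to translation. Still other lncRNAs start close to a coding gene and are transcribed away from it, from a shared promoter region.

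The highest member was *2410006H16Rik* (ENSMUSG00000086841, chr11:62602877-62604807, GRCm38), a snoRNA host with 5 exons, at 299, 222 and 234 FPKM in replicates 1, 2 and 3 (251.6 ± 41.2, SD, n = 3). It ranked 231 among all named genes. *Gm10076* (ENSMUSG00000060143, chr14:105681828-105682211), a single-exon gene, followed at 238, 173 and 169.8 FPKM (193.5 ± 38.4). Of the 50-base words of its longest transcript, 69.9% also occur in transcripts of *Rpl41*, which encodes a ribosomal protein and stood at 1766 ± 346 FPKM, so the level of *Gm10076* is uncertain. *Epb41l4aos* (ENSMUSG00000087590, chr18:33794892-33795986), a host, came next at 107, 84.6 and 88.7 FPKM.

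From there the levels fell steeply. Only 2 of the 100 reached 100 FPKM, 23 reached 10 FPKM and 54 reached 5 FPKM, and the median was 5.27 FPKM. None was among the 100 most abundant of all named genes, and 3 were among the first 1000. For comparison, the 10023 protein-coding genes at 1 FPKM or more in every library had a median of 8.40 FPKM, and 35.4% of them lay below the median of the 100 lncRNAs. *Snhg8* followed at 51.1 ± 11.4 FPKM and *Snhg5* at 38.8 ± 6.91 FPKM. The next places were held by *Gm26917* at 36.2 ± 5.71, *Zfas1* at 34.5 ± 9.82, *Gas5* at 34.3 ± 6.15, *Snhg1* at 32.5 ± 3.73 and *2900097C17Rik*, known as *Norad*, at 28.02 ± 2.36 FPKM. From *Gm26917* to *Snhg1*, neighbours in this order differed by less than their SD.

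**Figure D1:**
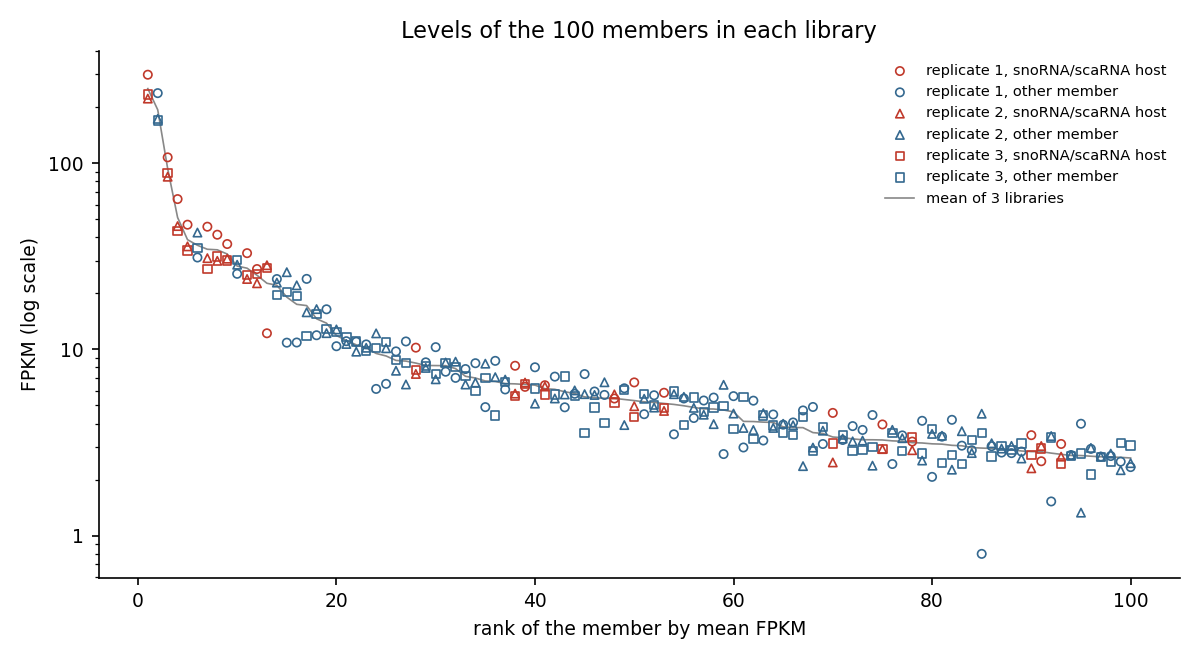
FPKM of each of the 100 lncRNAs (log scale) against its rank by mean FPKM, with circles, triangles and squares for replicates 1, 2 and 3, snoRNA and scaRNA hosts in red, other members in blue, and a grey line for the mean. Hosts fill 10 of the first 20 ranks, and replicate 1 (circles) is the highest point for most of them.

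The group as a whole was a small part of the transcriptome. It took 0.228%, 0.226% and 0.216% of the counts on named genes in replicates 1, 2 and 3 (0.223 ± 0.00632%). It nevertheless held 65.2%, 63.4% and 63.6% of the counts on all lncRNAs that met the rule, because 7547 of the 9167 had at most 3 counts in every library and 5897 had none. All 100 had more than 3 counts in each library. The 10 highest members took 61.3%, 55.0% and 55.6% of the summed FPKM of the group. Members lay on all 19 autosomes, with 13 on chromosome 11, and their lengths ran from 294 to 26093 bases with a median of 1506.5. At the lower edge, *Gm12932*, *Platr22* and *Gm45494* were inside at 2.65, 2.63 and 2.61 FPKM, and *Gm5165*, *Gm47343* and *4930481B07Rik* were just outside at 2.60, 2.60 and 2.59 FPKM, differences below the SD of each gene.

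Genes that carry a snoRNA or scaRNA made up a large class. A whole snoRNA or scaRNA gene lay on the same strand inside 23 of the 100, against 44 of the other 9067 lncRNAs (0.485%) and 9 of the 1165 others with at least 10 counts (0.773%). The hosts made up 10 of the first 20 ranks, 16 of the first 50 and 7 of the last 50. Their median was 6.53 FPKM, against 4.88 FPKM for the other 77 members, and they carried 51.3%, 46.5% and 47.9% of the summed FPKM of the 100 in replicates 1, 2 and 3. The members named *Snhg*, for small nucleolar RNA host gene, numbered 13. *Snhg3*, at 0.331 ± 0.139 FPKM, was an *Snhg* gene outside the group.

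The best known host is *Gas5* (ENSMUSG00000053332, chr1:161034422-161038539), which accumulates when cells stop growing and holds 10 snoRNA genes in the table. It had 2809, 2105 and 2143 counts, so replicate 1 was highest, and the 3 libraries differed beyond sampling noise (chi-square test, adjusted p = 3.9e-44). *Snhg1*, with 8 snoRNA genes, had 1977, 1707 and 1609 counts (chi-square adjusted p = 2.3e-15). *Zfas1*, with 3, had 1568, 1100 and 925 counts (chi-square adjusted p = 7.2e-50). Each of these genes was thus highest in replicate 1, and in none of them did replicates 2 and 3 differ past the threshold when tested without replicate 1.

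*Snhg14* (chr7:59307924-59975759) was the extreme of the class. It is the long imprinted transcript of the Prader-Willi region that runs into *Ube3a* from the opposite strand, and it held 208 of the 261 snoRNA and scaRNA genes found inside members. It had 1466, 1297 and 1146 counts over a length of 26093 bases, which is 2.73 ± 0.342 FPKM, rank 93. *AA465934* went against the other hosts, with 157, 377 and 352 counts (chi-square adjusted p = 1.4e-17), so that replicate 1 was lowest. *Snhg16* was the steadiest of all members with at least 50 counts on average, at 6.29, 6.64 and 6.51 FPKM (CV 0.327% after scaling, chi-square adjusted p = 0.997).

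The small RNA genes themselves had few counts. Of the 261 genes, 252 had no count in any library, and all of them together had 112, 115 and 113 counts. *Snord49a*, inside *2410006H16Rik*, had the most, at 55, 41 and 44 counts. *Gm23201*, inside *Zfas1*, came next at 28, 29 and 20 counts. Both were named after their values were seen. The table does not show whether such counts came from the small RNA or from unspliced host RNA. RNAs without a poly(A) tail were not selected, so low counts do not show that the small RNAs were scarce.

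Replicate 1 was the highest library for 20 of the 23 hosts and the lowest for *AA465934* and *Snhg10*. The chi-square test called 17 of the 23, beside 47.2% of all genes with at least 10 counts and 59% of those with at least 100. It called 16 of the 23 with replicate 1 highest, beside 22.2% and 28.2% of all genes at these depths. Without replicate 1, 0 of the 23 were called, beside 8.11% of all genes. On the log2 scale of TMM-scaled CPM (counts scaled to a common library total) with a pseudocount of 0.1, replicate 1 exceeded the mean of replicates 2 and 3 by a median of 0.46 in the hosts and 0.13 in the other members, where all genes with at least 10 counts had a median of -0.0033. Below 1000 bases the median was 0.42 in hosts (6 genes), 0.14 in other members (32 genes) and 0.27 in all genes (1692 genes). Of these 6 hosts, 4 had replicate 1 highest. All genes of that length with at least 100 counts were at 0.36 (691 genes), near the hosts. In hosts of 1000 to under 3000 bases the median was 0.49 (12 genes), against 0.26 in other members (30 genes) and 0.20 in all genes (4867 genes) of that length. In hosts of 3000 bases or more it was 0.36 (5 genes), against -0.17 in other members (15 genes) and -0.11 in all genes (10385 genes). For 80 coding genes with ribosomal protein names, a set added after the values were seen, the median was 0.46 at a median length of 1805.5 bases.

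**Figure D2:**
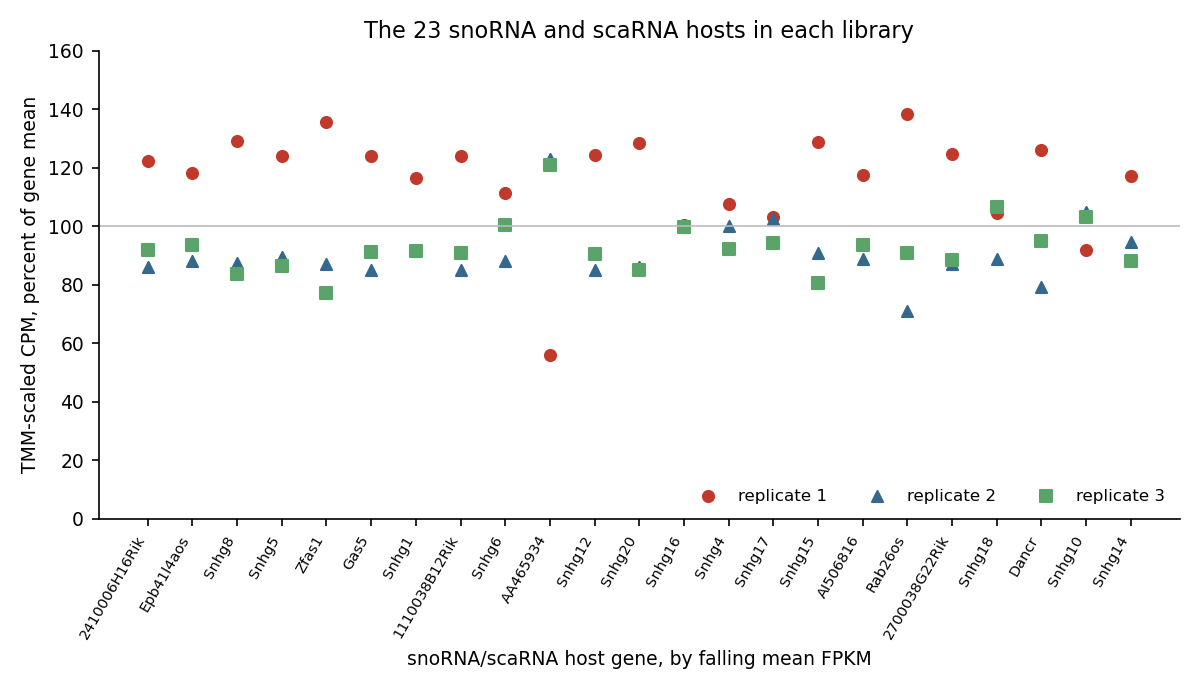
TMM-scaled CPM of the 23 snoRNA and scaRNA hosts as a percent of each gene's mean over the 3 libraries, with red circles, blue triangles and green squares for replicates 1, 2 and 3. Replicate 1 is the highest point in 20 hosts and the lowest in *AA465934* and *Snhg10*, and the points of *Snhg16* coincide.

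The sequence around the start of the hosts was examined because a pyrimidine run at the start marks the mRNAs of the translation machinery. RefSeq promoter windows (GRCm38.p6, 250 bases before to 50 after the start) were given for 61 of the 100 members, 20 of them hosts. An unbroken run of at least 8 C or T that touched the 10 bases on either side of the start was present in 7 of the 20 hosts (35%), 7 of the 41 other members (17.1%), 13.9% of all 27025 promoters and 42.9% of the 63 promoters of genes with ribosomal protein names. The 7 hosts are shown from 25 bases before to 35 bases from the annotated start, 5′ to 3′, with the run in capitals.
2410006H16Rik (chr11:62602852-62602911, plus strand): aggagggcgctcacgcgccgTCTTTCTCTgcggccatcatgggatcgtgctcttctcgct
Snhg1 (chr19:8723462-8723521, plus strand): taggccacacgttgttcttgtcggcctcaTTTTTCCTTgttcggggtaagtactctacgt
Snhg12 (chr4:132308653-132308712, plus strand): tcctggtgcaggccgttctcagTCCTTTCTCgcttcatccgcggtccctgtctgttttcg
Snhg16 (chr11:116671635-116671694, plus strand): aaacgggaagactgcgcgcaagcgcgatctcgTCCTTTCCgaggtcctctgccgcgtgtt
Rab26os (chr17:24528226-24528285, plus strand): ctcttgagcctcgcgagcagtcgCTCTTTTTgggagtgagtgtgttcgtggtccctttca
Snhg18 (chr15:32244628-32244687, minus strand): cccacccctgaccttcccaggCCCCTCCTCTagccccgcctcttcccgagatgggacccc
Snhg10 (chr12:105032245-105032304, minus strand): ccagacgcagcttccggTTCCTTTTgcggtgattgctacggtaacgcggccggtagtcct
The run begins between 8 bases before and 7 bases after the first transcribed base. Annotated starts can be off by some bases, and a run in this window does not show that the RNA begins within it.

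*Mir17hg* (chr14:115042879-115046727) was the member whose content is a miRNA cluster, and 3 more members, *Snhg4*, *Snhg10* and *Snhg20*, held a miRNA gene beside their snoRNA or scaRNA genes. The transcript is the precursor of the miR-17-92 cluster, whose products are abundant in pluripotent cells and promote growth. It had 380, 377 and 311 counts, which is 5.94, 5.69 and 4.88 FPKM (5.50 ± 0.557). Replicate 3 was lowest, and the chi-square test called the gene (adjusted p = 0.0186), but not without replicate 1 (0.281) or without replicate 3 (0.273). None of the 10 miRNA genes inside members had a count in any library, which in poly(A) RNA does not show that the mature miRNAs were absent. The mature miRNAs of the cluster's 6 hairpins are shown from RefSeq (GRCm38.p6), taking the arm known to accumulate, with the seed (bases 2 to 8), which pairs with targets, in capitals.
mmu-miR-17-5p (chr14:115043684-115043706, plus strand): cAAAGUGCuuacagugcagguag
mmu-miR-20a-5p (chr14:115044183-115044205, plus strand): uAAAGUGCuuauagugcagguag
mmu-miR-18a-5p (chr14:115043867-115043889, plus strand): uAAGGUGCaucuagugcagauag
mmu-miR-19a-3p (chr14:115044048-115044070, plus strand): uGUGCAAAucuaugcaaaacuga
mmu-miR-19b-3p (chr14:115044358-115044380, plus strand): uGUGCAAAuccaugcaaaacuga
mmu-miR-92a-3p (chr14:115044476-115044496, plus strand): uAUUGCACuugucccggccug
By shared seed they form 4 groups, miR-17 with miR-20a, miR-18a alone, miR-19a with miR-19b, and miR-92a alone. Other miRNA host genes stood below the group, such as *Mir22hg* at 0.958 ± 0.335 FPKM and *Mir9-3hg* at 0.678 ± 0.0827 FPKM, while *Mir142hg* and *Mir99ahg* had no count.

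Among lncRNAs with a part in nuclear structure, *Malat1* (chr19:5795690-5802672), a nuclear speckle RNA, varied the most in absolute counts. It was at 10.9, 26.0 and 20.4 FPKM (19.1 ± 7.64), with 1373, 3397 and 2570 counts (chi-square adjusted p = 2.3e-146). Replicate 1 was lowest, and replicates 2 and 3 still differed from each other when tested alone (chi-square adjusted p = 1.1e-15). *Neat1*, the scaffold of paraspeckles, was outside the group at 1.69 ± 0.0489 FPKM. Forms of *Malat1* or *Neat1* without a poly(A) tail were not selected, so these values do not give the whole level of either RNA.

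Of the lncRNAs listed for roles in stem cells or growth control, 6 were members. *2900097C17Rik* (*Norad*), which sequesters Pumilio proteins, had 2264, 2622 and 2670 counts (chi-square adjusted p = 1.6e-04), and its call was lost without replicate 1 (0.0909) and without replicate 3 (0.0960). *Oip5os1*, the mouse *Cyrano* transcript that triggers decay of miR-7, was at 11.9, 16.5 and 15.4 FPKM with replicate 1 lowest (chi-square adjusted p = 2.1e-17, and 0.321 without replicate 1). *Tug1* was at 6.09, 6.89 and 6.68 FPKM and was not called (chi-square adjusted p = 0.355). *Dancr*, a host that restrains differentiation of progenitors, was at 3.46, 2.30 and 2.72 FPKM with replicate 1 highest (chi-square adjusted p = 0.00291), and its call was lost without replicate 1 (0.475) and without replicate 2 (0.0521). The other two were *Gas5* and *Mir17hg*. *Lncenc1*, a lncRNA of naive embryonic stem cells, stood at 0.404 ± 0.0916 FPKM, *Crnde* at 1.57 ± 0.0571, *Miat* at 0.560 ± 0.0942 and *Pvt1* at 0.0366 ± 0.0125 FPKM, all outside the group.

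The *Platr* genes are named as pluripotency-associated transcripts, and 28 rows of the table carry such a name. The members among them were *Platr11* at 11.9 ± 1.29, *Platr10* at 8.73 ± 1.04, *Platr14* at 5.19 ± 0.426 and *Platr22* at 2.63 ± 0.469 FPKM. Of these, *Platr10* was called between libraries (308, 251 and 275 counts, chi-square adjusted p = 0.0063), and its call was lost without replicate 1 (0.348) and without replicate 2 (0.133). *Platr3* was below the edge at 2.35 ± 0.680 FPKM, and *Platr1*, *Platr6* and *Platr9* had no count. No antisense lncRNA of the developmental list was a member. *Bvht*, which is on none of the lists and is named after the values were seen, was a member. *Sox2ot* was at 0.0626 ± 0.0199 FPKM, and *Hotair*, *Hottip*, *Fendrr* and *Six3os1* had no count in any library, read here as a mean of at most 3 counts per library.

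Across all 100 members, the chi-square test called 52 (59 at an unadjusted p under 0.05), beside 47.2% of all genes with at least 10 counts and 16.1% of the other lncRNAs. Counts set the reach of this test, which covers counting error only. Among genes with at least 100 counts, 50 of 89 members (56.2%) and 59% of all genes were called, shares near each other. These sets have that minimum in common but were not matched for depth above it. Their median lengths were 1695 and 4381.5 bases, and their median levels 5.56 and 6.69 FPKM. Without replicate 1, 6 members were called, namely *Gm26917*, *AU020206*, *Malat1*, *4930516B21Rik*, *Map2k3os* and *2810013P06Rik* (named after their values were seen), beside 8.11% of all genes. Leaving out replicate 2 or replicate 3 gave 45 and 52 calls, beside 42.9% and 46.7% of all genes. The median coefficient of variation was 18.2% in members and 15.1% in all genes, and 6.82% and 6.196% without replicate 1. At 100 counts or more it was 17.9% in members and 11.7% in all genes.

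The direction was uneven. Of the 100 members, 36 were called with replicate 1 highest, 15 with it lowest and 1 with it between the others, and 22.2%, 22.1% and 2.92% of all 16944 genes tested were called in these ways. Of the 89 members with at least 100 counts the numbers were 35, 14 and 1, beside 28.2%, 28% and 2.79% of all 12402 genes of that depth. Replicate 1 was the highest library in 63 of the 100 members and in 41.8% of all genes, which were mostly longer. At 100 counts or more it was highest in 66.7% of members under 1000 bases and 75.5% of all such genes. From 1000 to under 3000 bases the shares were 73.8% and 74.8%, and at 3000 bases or more 40% and 30.4%. Within these classes the members were thus not uniformly above all genes. The ratio of replicate 1 to the others fell with gene length in all genes, from a median of 0.27 below 1000 bases through 0.20 to -0.11 at 3000 bases or more, and members of the same lengths stood at 0.15, 0.29 and -0.087. The part of gene length in the direction was not tested.

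**Figure D3:**
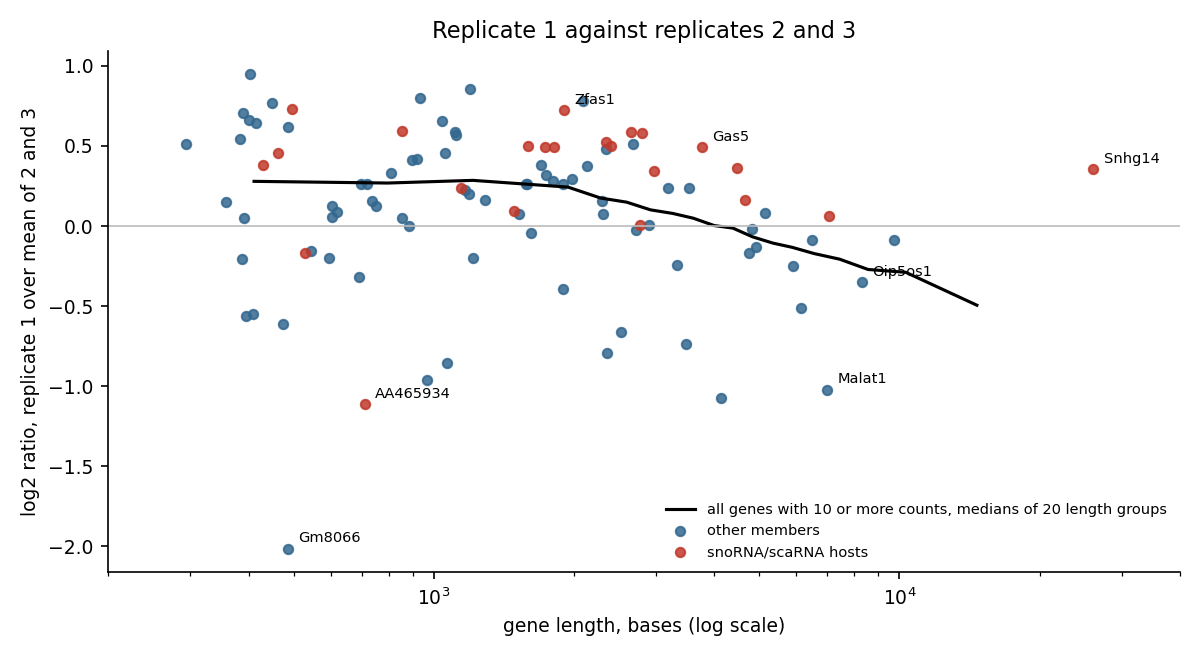
The log2 ratio of replicate 1 to the mean of replicates 2 and 3 (TMM-scaled CPM plus 0.1) against gene length in bases (log scale), with hosts in red, other members in blue and a black line for the medians of all genes in 20 length groups. Long hosts such as *Gas5* and *Snhg14* lie above the line, and *Malat1*, *AA465934* and *Gm8066* lie well below it.

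Among members with at least 50 counts on average, the ratio of replicate 1 was highest in *4930516B21Rik* at 517, 354 and 255 counts (log2 ratio 0.86, chi-square adjusted p = 1.4e-23). Next came *Gm49172* (0.80), *BC002059* (0.78), *Zfas1* (0.72) and *2610306M01Rik* (0.66). At the other end stood *AA465934* (-1.11), *1110002L01Rik* (-1.07), *Malat1* (-1.02), *4930579G18Rik* (-0.96) and *Gm14230* (-0.85). *Gm14230* had 210, 441 and 373 counts (chi-square adjusted p = 8.2e-14, and 0.351 without replicate 1). *Gm8066*, picked out after its values were seen, had only 7, 41 and 31 counts (log2 ratio -2.02, chi-square adjusted p = 1.3e-04). The steadiest after *Snhg16* were *Gm32856*, *2500002B13Rik*, *Gm17491* and *Trmt61b*, with coefficients of variation from 2.14% to 3.20%. The row named *Trmt61b* carries the name of a tRNA methyltransferase gene but the biotype lncRNA in the authors' table.

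Many members lay beside a coding gene. The start of 41 members was within 2 kb of the start of a protein-coding gene on the opposite strand, with a median distance of 172 bases. This arrangement was found in 17.2% of the other lncRNAs that met the rule, but in 44.5% of those others with at least 10 counts, so it was as common among expressed lncRNAs outside the group. A protein-coding gene on the opposite strand was overlapped by 28 members, and 66 overlapped none on either strand. The nearest protein-coding gene was at 1 FPKM or more for 80 members, for 53.3% of the other lncRNAs and for 76.1% of those with at least 10 counts.

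In these pairs the coding gene was usually the higher. The partner had the higher mean in 29 of 41 pairs, the medians were 12.9 FPKM for partners and 5.38 FPKM for members, and 39 partners were at 1 FPKM or more. The levels of the 2 genes of a pair were not ordered alike (Spearman rho -0.16 over 41 pairs from the same 3 libraries, a description). *Snhg1*, 106 bases from *Slc3a2*, which encodes the heavy chain of amino acid transporters, was paired with the highest partner among the leading pairs, at 95.4 ± 5.69 FPKM. *Zfas1* and *Gas5* stood opposite weak partners, *Znfx1* at 1.46 ± 0.317 and *Zbtb37* at 0.475 ± 0.212 FPKM. *Gm14230* at 17.5 ± 5.85 FPKM exceeded *Tgif2*, which encodes a repressor of TGF-β signalling, at 4.09 ± 1.23 FPKM, and *4930516B21Rik* at 17.2 ± 6.16 exceeded *Exog* at 3.06 ± 0.0978 FPKM. The most abundant partners of all, named after their values were seen, were *Ubb* at 447 ± 46.9 FPKM beside *Gm12279* and *Pcna*, the DNA replication clamp, at 221 ± 9.03 FPKM beside *AV099323*.

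The library ratios of the pairs were not ordered alike either. Replicate 1 stood above the other libraries (log2 ratio above 0) in both genes of 14 pairs and below them in both genes of 8, whereas in 16 pairs the lncRNA was above and the partner below 0, and in 3 the reverse held (Spearman rho 0.041 over 41 pairs, a description). *Gas5* was at 0.49 and *Zbtb37* at -1.29, and *Zfas1* was at 0.72 and *Znfx1* at -0.51. *Gm14230* and *Tgif2* were both lower in replicate 1, at -0.85 and -0.77. The partners were longer, with a median of 6401 bases against 1195 bases for the members, and the ratio fell with length in all genes.

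**Figure D4:**
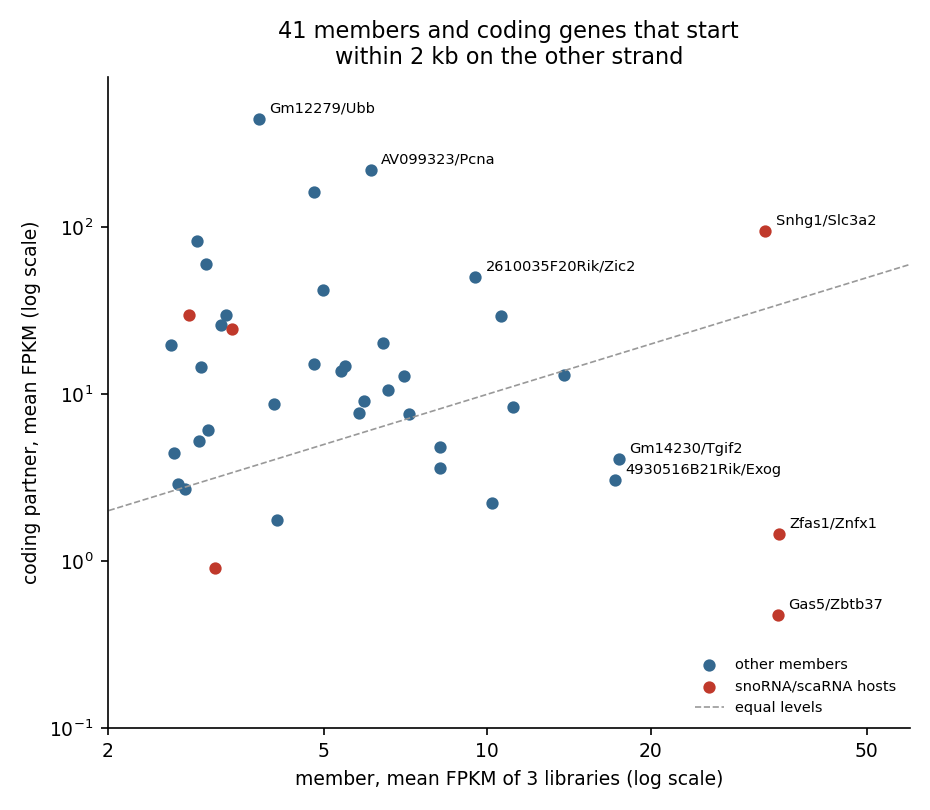
Mean FPKM over 3 libraries of 41 members (horizontal) and of the protein-coding gene that starts within 2 kb on the other strand (vertical), both on log scales, with hosts in red, other members in blue and a dashed line at equal levels. Points lie above the line in 29 pairs, and *Zfas1* and *Gas5* lie far below it.

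Genes of epiblast development were the nearest coding gene of 3 members (3%), against 1.10% of the other lncRNAs, most of which had few or no counts. The share among others with at least 10 counts was not computed, so no excess is claimed. *2610035F20Rik* (chr14:122470284-122475199) starts 236 bases from *Zic2*, a zinc finger factor of the primed epiblast. It was at 6.13, 12.2 and 10.2 FPKM with replicate 1 lowest (chi-square adjusted p = 1.7e-15), and its call was lost without replicate 1 (0.0997). *Zic2* was at 50.4 ± 2.03 FPKM (chi-square adjusted p = 0.749). *Platr11* lies 72113 bases from *Eomes*, which specifies mesendoderm and was at 1.32 ± 0.161 FPKM. *Gm10076* lies 209736 bases from *Spry2*, an inhibitor of FGF signalling, at 18.3 FPKM.

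Overlap bounds what some members can show. Of the highest antisense pairs, *Snhg6* faced *Mcmdc2*, which had 0, 1 and 0 counts. *Brip1os* (8.18 ± 0.511 FPKM) faced *Ints2* at 11.8 ± 2.69 FPKM, and 20.2% of its exon bases lay over exons of opposite-strand genes. *1500015A07Rik* (8.20 ± 0.293 FPKM) faced *Afap1l1* at 2.67 ± 0.299 FPKM. In all, 60 members shared no exon base with another gene of GENCODE M21, 5 shared 50% or more, and 79 had at least 90% of 50-base words that no other gene's transcripts hold.

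For 7 members fewer than 50% of the words were unique. Besides *Gm10076*, these were *Gm28901*, *Gm47467*, *Gm17201*, *Gm7292*, *Gm12940* and *1110002L01Rik*, all named for this after the values were seen. *Gm7292* shared 77.5% of its words with *2900097C17Rik* (*Norad*), and 39.5% of the words of *2900097C17Rik* occur in *Gm7292*, so reads of the pair may have been split between them. *Gm12940* shared 86.5% with the opposite-strand gene *Zmym1*, and *1110002L01Rik* shared 73.0% with *Kif3c*. *Gm26917* ends 12 bases before *Rn18s-rs5*, which is named for ribosomal RNA and classed as a pseudogene in RefSeq. *Gm26917* was at 31.2, 42.4 and 35.1 FPKM (chi-square adjusted p = 1.7e-16). Among the 54 members with at least 90% unique words and no shared exon base, 6 were hosts, 33 had replicate 1 highest (41.8% of all genes) and 21 were called (47.2% of all genes). These shares of all genes were not matched for length or depth.

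The promoters were rich in CpG. CpG sites are lost where DNA is methylated in the germ line, and promoters that keep them are mostly those of widely expressed genes. The ratio of CpG observed to that expected from C and G content had a median of 0.828 in the 61 windows of members, 0.389 in all promoters, 0.272 in 3544 other lncRNAs and 0.596 in 16615 protein-coding genes. It was 0.6 or more in 72.1% of members (95% of the 20 hosts and 61.0% of the 41 others). It was so in 36.5% of all promoters and 49.8% of protein-coding genes. Members were chosen by level, whereas these comparison sets were not filtered for expression. In the 43 members whose RefSeq start lay within 100 bases of the start in the table, the median was also 0.828, and all 17 hosts among them were at 0.6 or more. The RefSeq window of *Snhg14* was offset by -474418 bases from the start in the table, so it is not the promoter of the row that was counted. The windows of *2410006H16Rik*, the highest member, and of *Platr10*, a *Platr* gene with a CpG-poor start, are shown as a CpG-rich and a CpG-poor example, with each CG in capitals (31 and 1). They are not the extremes of the 61 windows, which held 0 to 53 CG.
2410006H16Rik (chr11:62602627-62602926, plus strand): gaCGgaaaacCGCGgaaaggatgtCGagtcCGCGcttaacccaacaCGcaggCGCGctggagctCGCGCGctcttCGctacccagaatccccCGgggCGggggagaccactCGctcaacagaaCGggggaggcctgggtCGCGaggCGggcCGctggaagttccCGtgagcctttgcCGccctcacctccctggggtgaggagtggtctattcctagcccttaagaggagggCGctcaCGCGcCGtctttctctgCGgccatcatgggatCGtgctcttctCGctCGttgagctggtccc
Platr10 (chr3:75655682-75655981, minus strand): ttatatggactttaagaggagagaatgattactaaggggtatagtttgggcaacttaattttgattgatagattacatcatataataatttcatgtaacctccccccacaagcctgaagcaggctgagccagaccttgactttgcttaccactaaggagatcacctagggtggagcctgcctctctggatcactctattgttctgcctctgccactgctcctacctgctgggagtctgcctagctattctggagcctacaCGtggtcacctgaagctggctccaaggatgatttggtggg
Motifs were searched on both strands. GGGCGG, the core bound by SP1, occurred in 63.9% of members, 35.9% of all promoters and 47.9% of protein-coding genes. CACGTG, the E-box, occurred in 14.8%, 7.24% and 8.12%. CCAAT was near its background, at 40.98% and 37.9%, and the octamer ATGCAAAT, which POU factors bind, was found in 2 of 61 windows (3.28%, against 1.75%). TATAAA was found in 5 of the 20 hosts (25%), 1 of the other 41 members (2.44%) and 14.2% of all promoters. A match is a description of these letters and not evidence of binding.

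**Figure D5:**
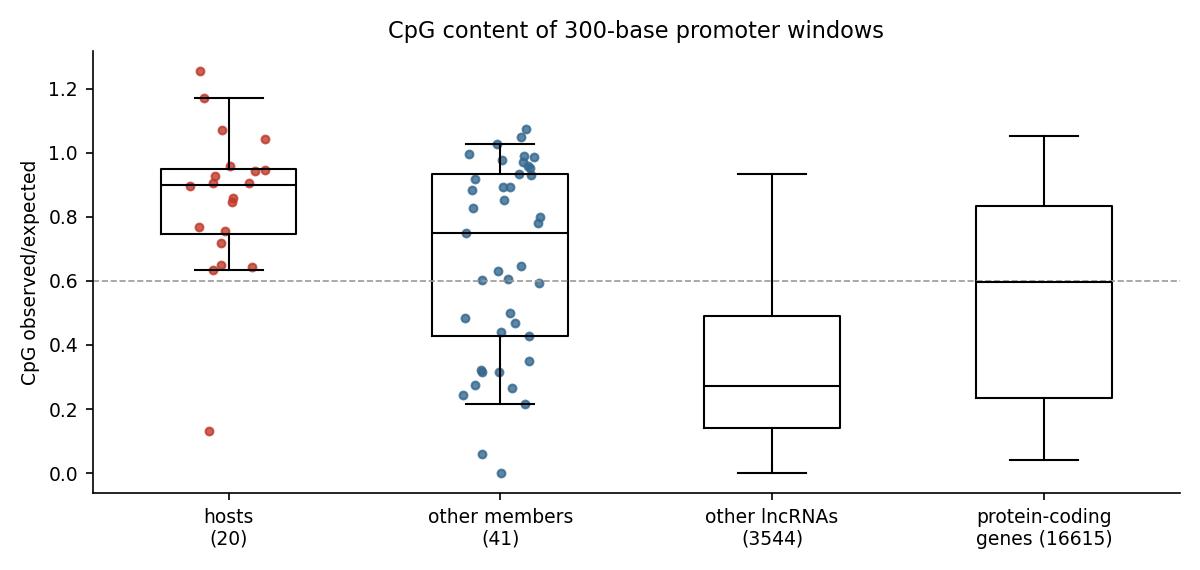
CpG observed over expected in 300-base promoter windows of 20 hosts, 41 other members, 3544 other lncRNAs and 16615 protein-coding genes, with boxes from the lower to the upper quartile, a line at the median, whiskers from the 5th to the 95th percentile, points for single members and a dashed line at 0.6. All hosts but *Snhg14*, whose window lies far from the start in the table, are above 0.6, and the median of other lncRNAs is 0.272.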

How the data were processed

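Poly(A) RNA of 3 ALSC libraries was sequenced with a kit that does not mark strand. The authors deposited whole-number read counts per gene with gene lengths and biotypes on GRCm38. The submitters' processing notes name HISAT2 2.0.5, and the counter is not given in the sources used here. A further 3 count columns of another cell type were not used. The 317 rows without a gene name (0.165%, 0.182% and 0.182% of counts) were left out.

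From these counts FPKM were computed with the total on named genes, and CPM with TMM factors (edgeR 4.0.16). Each gene with at least 10 counts in total entered a chi-square test that set its 3 counts against the TMM library sizes, with Benjamini-Hochberg adjustment over all such genes and a threshold of 0.05. The test covers counting error only, and a design of 1 condition allowed no model of replicate error. The log2 ratio used a pseudocount of 0.1 CPM. A count of 0 was read as a mean of up to 3 counts in that library, a rough convention and not a bound computed over the 3 libraries. The script was tested on simulated data.

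Positions, neighbours and small RNA genes were taken from the authors' table. Exons and words of 50 bases came from GENCODE M21 (GRCm38), and the sequences shown came from RefSeq (GRCm38.p6). All 100 members were matched by gene ID. Genes were named by rule, namely the 10 highest members, members on the gene lists, holders of a small RNA gene, the 5 highest and 5 lowest log2 ratios and 5 lowest coefficients of variation among members with at least 50 counts on average, the 5 highest divergent and 5 highest antisense pairs, members next to an epiblast gene, and the 3 genes on either side of the lower edge. Other genes named are said to be chosen after their values were seen. The members and lists were chosen with earlier results of these data known. Alternatives were other size factors, TPM, no length scaling, other filters and pseudocounts, and leaving out each library. The tools were R 4.3.3 with DESeq2 1.42.0 (size factors only), and Python 3.11.15 with SciPy 1.17.1, NumPy 2.4.6, matplotlib 3.10.9 and pandas 2.3.3.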

Additional observations from a re-analysis of the deposited data

How the results depend on the processing

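With 3 libraries of 1 condition, the source of the variation between libraries was not tested, and replicate 1 sets most of it. No paired analysis was possible because all 3 libraries belong to 1 condition. Leaving out a library kept 94 to 95 of the 100 members, with a median level of 5.23 to 5.33 FPKM, a share of counts of 0.221% to 0.227% and a median log2 ratio of 0.14 to 0.22. The members called ranged from 6 (without replicate 1) to 52, and the median coefficient of variation from 6.82% (without replicate 1) to 18.8%. The median level was 14.5 as TPM, 8.15 as CPM without gene length and 4.37 FPKM in the lowest library, since each is another quantity. TMM and DESeq2 sizes kept 99 members, TPM 100, the lowest library 97, a minimum of 100 counts 89 and no length scaling 68. Other scalings and filters called 51 to 53 members. With total counts the median log2 ratio was 0.14 in members and -0.071 in all genes. Single named genes were compared under each setting, and 114 of 446 levels and 27 of 250 ratios moved by more than the spread. Of 346 test results, each for 1 gene under 1 setting and called or not, 36 lost a call and 4 gained one. Leaving out replicate 1 gave 29 of the 36 losses. Among the 54 members with unique words and no shared exon, 21 were called, a count added after seeing the data. At this depth, members near the lower edge cannot be ordered.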
